A study of Mus musculus with 19 samples.

Results

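Oxidative phosphorylation genes of both genomes were followed in brain tissue and brain cells of irradiated, marrow-transplanted mice. The members were chosen by name alone, as every gene whose symbol begins mt-Nd, mt-Co, mt-Cyt, mt-Atp, Nduf, Cox4 to Cox8, Uqcr or Atp5, together with Sdha, Sdhb, Sdhc and Sdhd. This gave 106 of the 15634 genes in the hippocampus table and 103 of the 13783 in the sorted-cell table, 107 in either and 102 in both. Each table held 13 members encoded in mitochondrial DNA, with 93 nuclear members in hippocampus and 90 in sorted cells. A filter on low values left 104 and 102 members to test. It removed Cox7a1 and Cox8b in hippocampus and Cox6b2 in sorted cells. Ndufab1-ps, Cox6c2 and Ndufb4c are annotated as processed pseudogenes and were counted apart from the complexes.

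All recipients were irradiated with a split dose of 1100 cGy and given 5000000 T-cell-depleted (TCD) marrow cells. Mice with chronic graft-versus-host disease (GVHD), in which donor T cells attack the recipient, were also given 500000 splenic T cells, and TCD recipients were not. Day 80 hippocampus was compared in 3 GVHD and 3 TCD libraries. The sorted cells came from brains on day 70. They were macrophages derived from donor bone marrow in mice with GVHD (6 libraries), and microglia of the host, from mice with GVHD (4 libraries) and from TCD recipients (3 libraries). Strain and age are not given in the sources used here, and nothing in the labels says that the libraries of a group came from separate animals. The p-values below therefore measure the spread between these libraries, which may be technical.

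Depth was estimated from a step of which most values in a library, 65.7% to 83.6%, are whole multiples. This rough estimate was 16673582 to 18546915 reads in hippocampus and 7901511 to 35844661 in sorted cells. The sorted libraries carry 1 of 2 API numbers, whose meaning the labels do not explain: library 1 of each sorted group has the lower number and all others the higher. The libraries with the lower API number had the lowest summed mitochondrial mRNA of their groups. TCD host library 1 also carries Syn in its description, a term the labels do not explain, and values without it are given below. The labelled cell types were checked against marker lists. Summed microglia markers such as P2ry12 and Tmem119 stood at 29416 to 36744 in GVHD host, 34615 to 47358 in TCD host and 8369 to 13661 in donor libraries. Summed markers of engrafted macrophages such as Apoe and Ms4a7 stood at 146709 to 173348 in donor, 8104 to 21825 in GVHD host and 2747 to 5466 in TCD host libraries.

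Oxidative phosphorylation is carried out by 5 complexes of the inner mitochondrial membrane. Complexes I to IV pass electrons from NADH and succinate to oxygen, complexes I, III and IV pump protons, and complex V, ATP synthase, uses the proton gradient to make ATP. Complex II is encoded by nuclear genes alone, while the other complexes join subunits of both genomes. Neurons depend on this pathway for synaptic activity, and macrophages and microglia shift between it and glycolysis when they are activated.

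Mitochondrial mRNAs are cut from long transcripts of the whole mitochondrial genome, and 2 pairs of reading frames stay joined in 1 mRNA and overlap in sequence. These stretches are shown because the only member called higher in hippocampus, mt-Atp8, lies in one of them. Reads in an overlap fit both genes, so their separate values are uncertain. Sequences are from the GENCODE transcripts of GRCm38, plus strand of chromosome M, with the shared bases in capitals. mt-Atp8 (chrM:7766-7969), a small subunit of ATP synthase, shares 43 of its 204 bases, 21.1%, with mt-Atp6, the proton-channel subunit. mt-Nd4l shares 7 bases, positions 10167 to 10173, with mt-Nd4, another complex I subunit. The whole of mt-Atp8, the first 60 bases of mt-Atp6, the last 60 of mt-Nd4l and the first 60 of mt-Nd4 read:
mt-Atp8: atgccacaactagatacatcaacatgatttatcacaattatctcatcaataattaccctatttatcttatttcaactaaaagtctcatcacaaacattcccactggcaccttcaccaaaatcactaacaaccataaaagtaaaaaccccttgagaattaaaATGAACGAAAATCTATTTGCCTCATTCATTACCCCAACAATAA
mt-Atp6: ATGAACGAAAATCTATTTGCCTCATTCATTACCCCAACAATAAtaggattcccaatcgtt
mt-Nd4l: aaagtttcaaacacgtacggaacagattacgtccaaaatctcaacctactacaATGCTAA
mt-Nd4: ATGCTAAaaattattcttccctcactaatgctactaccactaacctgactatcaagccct

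Values are normalised counts as the authors deposited them, and the 2 tables are of separate experiments, so levels are compared within a table only. In hippocampus the 13 mitochondrial mRNAs summed to 88592, 89513 and 87352 in GVHD libraries 1 to 3 and to 96176, 100857 and 98723 in TCD libraries 1 to 3. The groups did not overlap in this sum, although as a share of the library total it stood at 8.84% to 9.07% against 8.92% to 9.84%, which overlap. Nuclear members summed to 8006 to 8234 in GVHD and 8215 to 8502 in TCD hippocampus. In sorted cells the mitochondrial sum was 7589 to 10615 in donor macrophages, 6696 to 11580 in GVHD host and 5603 to 9134 in TCD host microglia, and all 3 groups overlapped. The nuclear sum was 4601 to 7105, 3927 to 5814 and 3842 to 5356 in the same order.

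**Figure D1:**
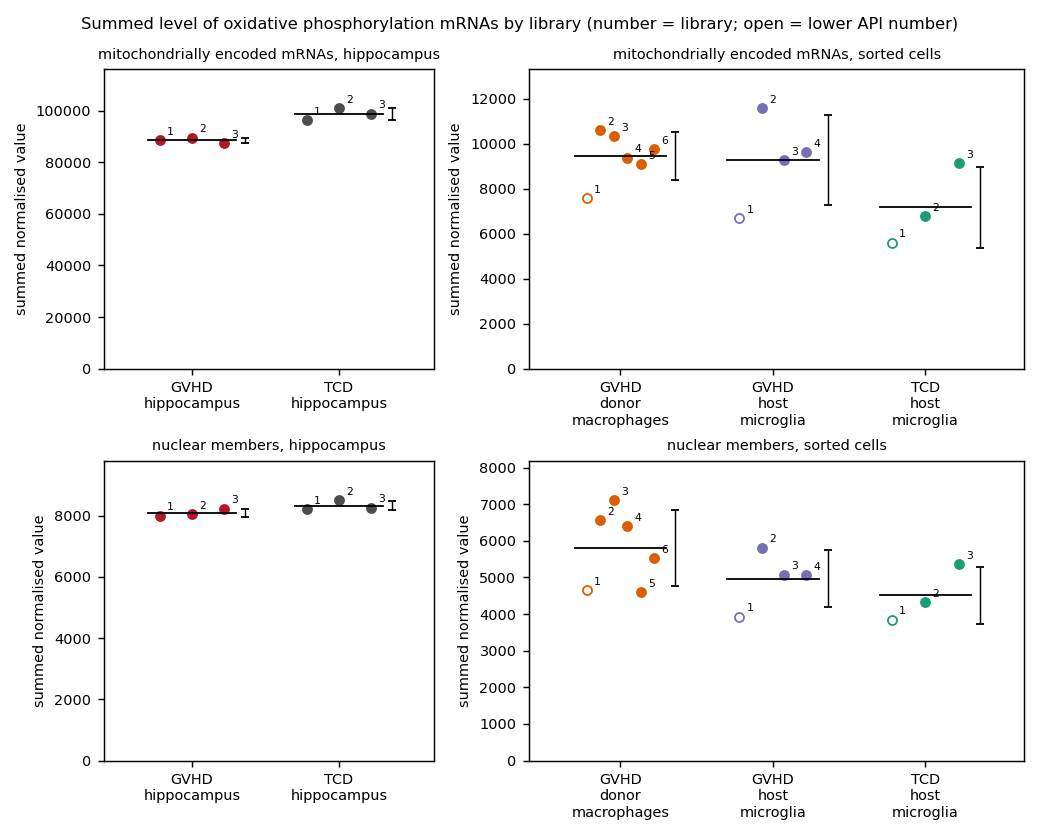
Summed normalised value (y axes, from 0) of the 13 mitochondrially encoded mRNAs and of the nuclear members in each library of the 5 groups (x axes); bars are group means, whiskers SD, and numbers library numbers, with libraries of the lower API number as open points. The GVHD hippocampus mitochondrial sums of 87352 to 89513 lie below the TCD sums of 96176 to 100857, while the sorted groups overlap.

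Per kilobase of transcript, mitochondrial mRNAs stood far above nuclear members in hippocampus. The length used was that of the longest protein-coding transcript in the annotation, with no correction for fragment length. The ranks of short mRNAs, such as mt-Nd3 with 348 bases and mt-Atp8 with 204, are therefore uncertain. The level per kb in TCD hippocampus was 19859 for mt-Co1, the catalytic subunit of complex IV, 15501 for mt-Co2 and 13518 for mt-Atp6. The highest nuclear member was Atp5b, the catalytic beta subunit of ATP synthase, at 565 per kb, and of the mitochondrial mRNAs mt-Atp8 alone lay below it there, at 521. In sorted cells mt-Atp6 led in all 3 groups, at 2844 per kb in donor macrophages, 2772 in GVHD host and 2117 in TCD host microglia. The nuclear member at the top there was Cox4i1, a complex IV subunit, at 303, 231 and 202 per kb. The mitochondrial complex I subunit mt-Nd3 was the lowest of the 13 per kb in each sorted group, at 21.3, 30.2 and 19.4, beside 624, 848 and 619.6 for mt-Nd1.

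Subunits with tissue isoforms were present mainly as the common form. Levels per kb in GVHD and TCD hippocampus were 450.4 and 459 for Cox4i1 against 1.28 and 1.55 for Cox4i2, the isoform of lung and hypoxia. Cox8a stood at 442 and 501 per kb, and the muscle form Cox8b at 1.68 and 0.334. Cox4i2, Cox7a1, Cox8b and Ndufa4l2 are listed in the hippocampus table only. Cox7a2l, which helps to join complexes III and IV into supercomplexes, reached 220.5 per kb in donor macrophages, 154 in GVHD host and 127 in TCD host microglia, above the 55.0, 40.4 and 29.7 of the subunit Cox7a2.

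Hippocampus of GVHD mice was set against that of TCD recipients, which had the same irradiation and marrow without the added T cells. Of 104 tested members, the value assigned to mt-Atp8 rose and Cox6a1, a nuclear subunit of complex IV, fell. None of the other 102 passed the test. Calls are at an adjusted p under 0.05 in limma, adjusted over all 14404 tested genes, of which 0.319% were called higher and 0.160% lower, 0.479% in all. The median log2 fold change was -0.07 over mitochondrial members, -0.02 over nuclear members and 0.00 over all tested genes. At an unadjusted p under 0.05 stood 28 members, 26.9%, 13 of them higher and 15 lower in GVHD, beside 17.0% of all tested genes.

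mt-Atp8 had normalised values of 220.3, 287 and 337 in GVHD libraries 1 to 3 and of 97.8, 105 and 117 in TCD libraries 1 to 3. All GVHD libraries were above all TCD libraries. Its log2 fold change was 1.38 ± 0.14 (SE, limma adjusted p = 0.0160). Its neighbour on the same mRNA, mt-Atp6, had 9060, 8746 and 9362 against 8601, 9398 and 9618, which overlap (log2 fold change -0.02 ± 0.11, limma adjusted p = 0.941). A rise of the shared mRNA is therefore not shown. mt-Atp8 made up 2.37%, 3.17% and 3.48% of the sum of both genes in GVHD and 1.12%, 1.10% and 1.2% in TCD hippocampus, a share that does not depend on library scaling. It does depend on how reads are assigned between mt-Atp8 and mt-Atp6, and the part of that assignment was not tested. The same share was 10.2% to 12.5% in the 13 sorted libraries. The call for mt-Atp8 was lost without TCD library 2 (limma adjusted p = 0.0921), without GVHD library 3 (adjusted p = 0.0684) and in limma without a variance trend (adjusted p = 0.0659), with log2 fold changes of 1.37, 1.24 and 1.38.

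Cox6a1 (chromosome 5, 115345642 to 115348981, minus strand) had values of 229.7, 225 and 202 in GVHD and 295, 329.6 and 306 in TCD hippocampus, with no overlap. Its log2 fold change was -0.50 ± 0.08 (SE, limma adjusted p = 0.0414). It passed in 6 of 17 alternative fits, and its adjusted p reached 0.154, without TCD library 2; it also lost the call without any 1 of the GVHD libraries (0.088 to 0.143) or TCD library 3 (0.0526). The muscle isoform Cox6a2 was at 3.35, 3.97 and 3.46 against 1.63, 3.21 and 4.71.

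Other mitochondrial mRNAs of the hippocampus differed in both directions without passing the test. mt-Cytb, the only mitochondrially encoded subunit of complex III, had values of 6960, 6631 and 6069 in GVHD and 9761, 9749 and 8757 in TCD libraries (log2 fold change -0.52 ± 0.11, SE, limma adjusted p = 0.0815). The groups did not overlap for this gene. mt-Nd1, a complex I subunit near the quinone site, had 5784, 5480 and 5511 against 6938, 7207 and 6720 (-0.31 ± 0.10, limma adjusted p = 0.170), again with no overlap. mt-Nd6, the only mRNA from the other strand of mitochondrial DNA, had 1074, 1124 and 1106 against 720.0, 786 and 916 (0.45 ± 0.10, limma adjusted p = 0.0742), and here the GVHD libraries were the higher ones. Its end (positions 13552 to 13565 of chromosome M) overlaps mt-Nd5 on the opposite strand, and whether the counting used strand is not stated. mt-Nd4l varied from 285 to 895 within the TCD group alone.

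**Figure D2:**
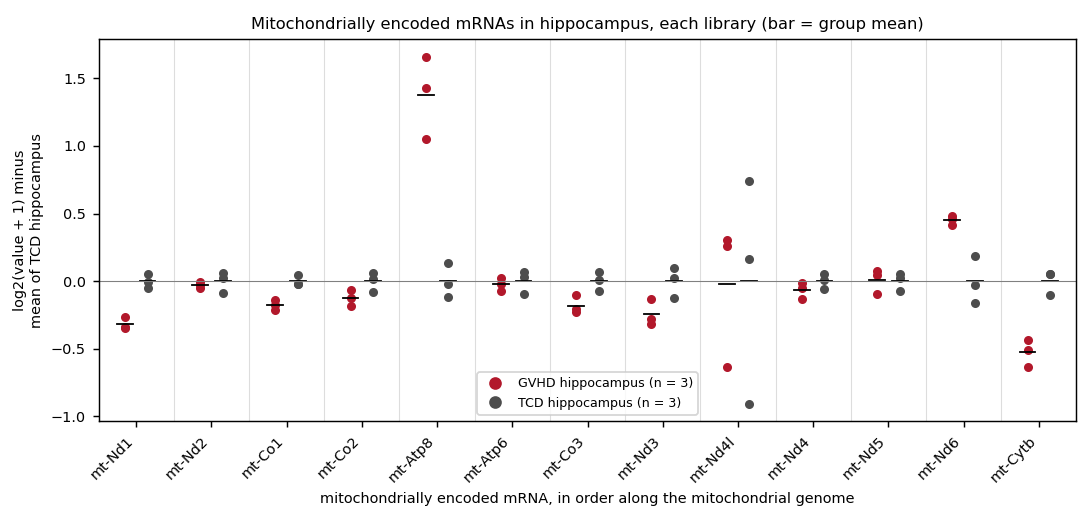
Each point is 1 hippocampus library: log2(value + 1) of each mitochondrially encoded mRNA minus the TCD mean (y axis), by gene (x axis), with bars at group means. The GVHD points of mt-Atp8 lie above all TCD points, those of mt-Cytb and mt-Nd1 lie below, and mt-Nd4l is spread in both groups.

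In the nuclear members of complex V, 8 of 16 were lower in GVHD hippocampus with no overlap between the groups and 2 were higher. Over all members 14 were higher (13.5%) and 28 lower (26.9%) with no overlap, beside 10.8% and 13.2% of all tested genes. Atp5g3, which encodes the c subunit of the rotor, had 85.5, 75.4 and 75.4 in GVHD against 130.2, 126 and 99.7 in TCD libraries (-0.58 ± 0.11, SE, limma adjusted p = 0.0668). Atp5d, the delta subunit of the stalk, had 116, 110.2 and 109 against 158, 149.9 and 135 (-0.40 ± 0.08, limma adjusted p = 0.0676). Neither passed the test. Atp5k, subunit e of the dimer interface, named here after its values were seen, had 6.05, 7.38 and 6.75 against 18.7, 16.3 and 9.17 (-0.97 ± 0.23, limma adjusted p = 0.0940). Ndufs6, a complex I subunit, lay the other way with 23.0, 20.1 and 22.2 against 13.4, 15.7 and 15.5 (0.52 ± 0.11, limma adjusted p = 0.0696). The 4 complex II genes Sdha to Sdhd had log2 fold changes of -0.23 to 0.26, and none passed.

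Marker genes of other cell types differed between these libraries. Summed choroid plexus markers stood at 3282, 1082 and 3785 in GVHD and 111, 45.1 and 30.9 in TCD hippocampus. Summed neuron markers stood at 11812 to 12133 and 13242 to 15366. Neither sum overlapped between the groups. All 8 oligodendrocyte markers had a positive log2 fold change in GVHD (median 0.42), as did 7 of 8 tested engrafted-macrophage markers (median 1.07), and none of either list passed the test. Their sums overlapped, at 4852 to 6663 against 3502 to 5247 and at 1702 to 3344 against 1387 to 2030. The part of these 4 marker lists in the results on mt-Atp8 and Cox6a1 was not tested. In bulk tissue, fewer cells of a type and less RNA per cell cannot be told apart.

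Donor macrophages were set against host microglia of the same disease group to ask how marrow-derived and resident cells differ in the GVHD brain. Donor or host origin cannot be told apart from cell type here. Of 102 tested members, 11 rose in donor macrophages and 6 fell. All 11 that rose were nuclear, 5 of complex V and 3 each of complexes I and IV. Of the 6 that fell, 3 were mitochondrial complex I mRNAs (mt-Nd1, mt-Nd3 and mt-Nd5) and 3 were nuclear (Cox6a2, Atp5s and Ndufaf7). The members' shares, 10.8% higher and 5.88% lower, were below the 19.4% and 19.2% of all 13086 tested genes, which come to 38.6% together. At an unadjusted p under 0.05 stood 31 members, beside 47.0% of all tested genes. The median log2 fold change was -0.10 over 13 mitochondrial and 0.20 over 89 nuclear members, beside 0.04 over all tested genes.

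Cox5a, a nuclear subunit on the matrix side of complex IV (chromosome 9, 57521274 to 57532426), had values of 51.5, 73.9 and 103 in donor macrophages (lowest, median and highest of 6), 35.6, 50.5, 45.5 and 41.4 in GVHD host libraries 1 to 4, and 31.6, 36.1 and 47.6 in TCD host libraries 1 to 3. The donor libraries were above both host groups. The log2 fold change against GVHD host was 0.69 ± 0.16 (SE, limma adjusted p = 0.00487). Atp5d had 61.2, 65.0 and 76.0 in donor macrophages and 35.5, 48.0, 49.4 and 43.5 in GVHD host microglia (0.59 ± 0.13, limma adjusted p = 0.00379), also with no overlap. Both kept their calls in all 28 alternatives run.

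The other rises were smaller. In complex V, Atp5h, subunit d of the stalk, rose by 0.50 ± 0.16 (log2, SE, limma adjusted p = 0.0231), and the catalytic Atp5b by 0.36 ± 0.09 (adjusted p = 0.00804). Atp5b had 320.1, 339 and 384 in donor libraries (lowest, median and highest) and 216, 301, 284 and 265 in GVHD host libraries, without overlap. In complex IV, Cox7a2l rose by 0.50 ± 0.13 (limma adjusted p = 0.00869) and Cox4i1 by 0.38 ± 0.13 (adjusted p = 0.0341). In complex I, Ndufa5 (0.50 ± 0.14, limma adjusted p = 0.0116), Ndufb10 (0.50 ± 0.14, adjusted p = 0.0153) and the iron-sulfur subunit Ndufs7 (0.26 ± 0.09, adjusted p = 0.0410) rose. Atp5a1 (0.32) and Atp5g3 (0.35) complete the 11 and are named after their values were seen. No nuclear subunit of complex III (8 tested) or complex II (4 tested) passed the test in either direction. The groups did not overlap for 5 members higher and 2 lower, 4.90% and 1.96%, beside 13.3% and 14.6% of all tested genes.

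Of 7 mitochondrial complex I mRNAs 3 fell in donor macrophages, beside 19.2% of all tested genes called lower, and 6 of the 7 had a negative fold change. Mitochondrial mRNAs share their transcripts, so the 7 are not independent of each other. mt-Nd1 had values of 411, 615 and 736 in donor libraries (lowest, median and highest) and 497, 1061, 825 and 864 in GVHD host libraries (log2 fold change -0.48 ± 0.13, SE, limma adjusted p = 0.00965). mt-Nd5, a proton-pumping subunit, had 133, 171 and 233 against 227, 312, 267 and 206 (-0.52 ± 0.15, limma adjusted p = 0.0130). mt-Nd3 had 4.19, 7.61 and 9.26 against 5.07, 12.6, 10.8 and 13.5 (-0.49 ± 0.15, limma adjusted p = 0.0217). All 3 fell in the model, which takes the API number into account, yet the groups overlapped in each. Without the API term mt-Nd1 (limma adjusted p = 0.226) and mt-Nd3 (0.337) did not pass. mt-Nd3 and mt-Nd5 lost their calls after a correction for GC content (0.206 and 0.054) and without GVHD host library 2 (0.0618 and 0.0541), mt-Nd3 also without GVHD host library 4 (0.075), and mt-Nd1 after correction for GC and length (0.0631).

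With donor and GVHD host libraries paired by API and description number, 8 rather than 11 members were higher and 6 lower. In the paired fit Cox4i1 (limma adjusted p = 0.0611), Ndufa5 (0.0546), Ndufs7 (0.119) and mt-Nd3 (0.0549) no longer passed, and mt-Nd2 did (0.0357).

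The nuclear members that fell were 2 of low level and 1 assembly factor. Cox6a2, the heart and muscle isoform of Cox6a1, had values of 0.734 to 1.64 in 6 donor libraries and 2.26 to 3.98 in 7 host libraries, with no overlap (-0.81 ± 0.13 against GVHD host, SE, limma adjusted p = 2.83e-04). Atp5s, known as coupling factor B, had 2.28 to 4.36 against 6.16 to 7.90 in GVHD host microglia (-0.99 ± 0.19, limma adjusted p = 9.84e-04). Ndufaf7, a methyltransferase that helps to assemble complex I, had 27.7 to 51.6 against 41.9 to 54.4 (-0.29 ± 0.10, limma adjusted p = 0.0387), and passed in 15 of 28 alternatives.

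**Figure D3:**
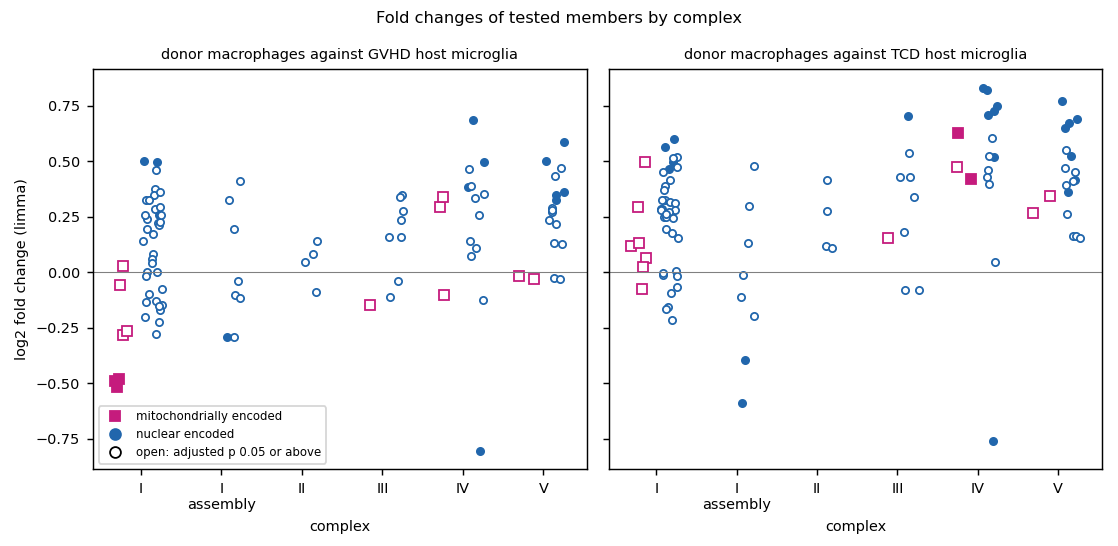
Log2 fold change from limma (y axes) of each tested member, grouped by complex (x axes), with mitochondrially and nuclear-encoded members marked apart and filled symbols for those that passed the test. Pseudogenes and Atp5s are not drawn; in donor macrophages against GVHD host microglia the mitochondrial complex I members lie at -0.52 to 0.03.

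These counts depended on how libraries were scaled and on single libraries. Donor libraries had larger deposited totals than host libraries, and rescaling each library to its total without mitochondrial genes moved the median of all tested genes from 0.04 to -0.12. On that scale 2 members were higher and 14 lower, with medians of -0.28 over mitochondrial and 0.04 over nuclear members. In every alternative other than leaving out 1 library, at least 1831 of all genes were called higher and at least 2039 lower. Both shares of the members on that scale therefore lay below those of all 13086 tested genes. The number of higher members became 30 without donor library 5, 7 without donor library 1, 6 without GVHD host library 1, and 7 without GVHD host library 3 or 4. Without donor library 5, 2787 of 13086 tested genes were higher, so the share of the 102 members then lay above that of all genes. The number of lower members became 3 without GVHD host library 2. With 1 library left out at a time, all genes called higher numbered 2149 to 2787 and lower 2244 to 2641. Apart from the 30 higher without donor library 5, the shares of the members in these fits lay below those of all genes. Within libraries of the higher API number alone, 6 members were higher and 4 lower, again shares below those of all genes. Donor libraries 1 and 5 had the lowest nuclear sums of their group, 4658 and 4601, and the lowest summed ribosomal protein mRNAs, 9342 and 9983 beside 13476 to 17318 in the other donors. Summed neutrophil markers were 19.8 to 608 in donor and 0.382 to 111 in host libraries. The 3 neuron markers listed (Camk2a, Map2 and Snap25) summed to 7.83 to 10.48 in donor, 10.53 to 20.5 in GVHD host and 5.15 to 8.33 in TCD host libraries, and donor and GVHD host libraries did not overlap. The 7 astrocyte markers listed summed to 48.1 to 87.0, 338 to 448 and 247 to 301 in the same order. Slc1a3 alone made up most of this sum in both host groups. Of 6 astrocyte markers tested in donor against GVHD host libraries, 3 had a positive and 3 a negative fold change. Among them 1 was called higher and 1 lower, so the list as a whole did not differ in 1 direction. The part of these sums was not tested.

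A ratio within each library is free of scaling. The 7 mt-Nd mRNAs summed to 1228 to 1809 in donor macrophages, 1353 to 2404 in GVHD host and 1076 to 1762 in TCD host microglia. The 3 mt-Co mRNAs of complex IV summed to 3409 to 4386, 2173 to 4248 and 2121 to 3434 in the same order. These sums overlapped between the groups.

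The mt-Nd sum over the mt-Co sum was 0.360, 0.419, 0.387, 0.372, 0.375 and 0.385 in donor libraries 1 to 6. It was 0.622, 0.566, 0.561 and 0.507 in GVHD host libraries 1 to 4 and 0.507, 0.540 and 0.513 in TCD host libraries 1 to 3. Donor macrophages overlapped neither host group. This ratio was looked at after the tests were seen and is given as a description, with no test. In hippocampus it was 0.589 to 0.637 in GVHD and 0.565 to 0.603 in TCD libraries, which overlap.

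**Figure D4:**
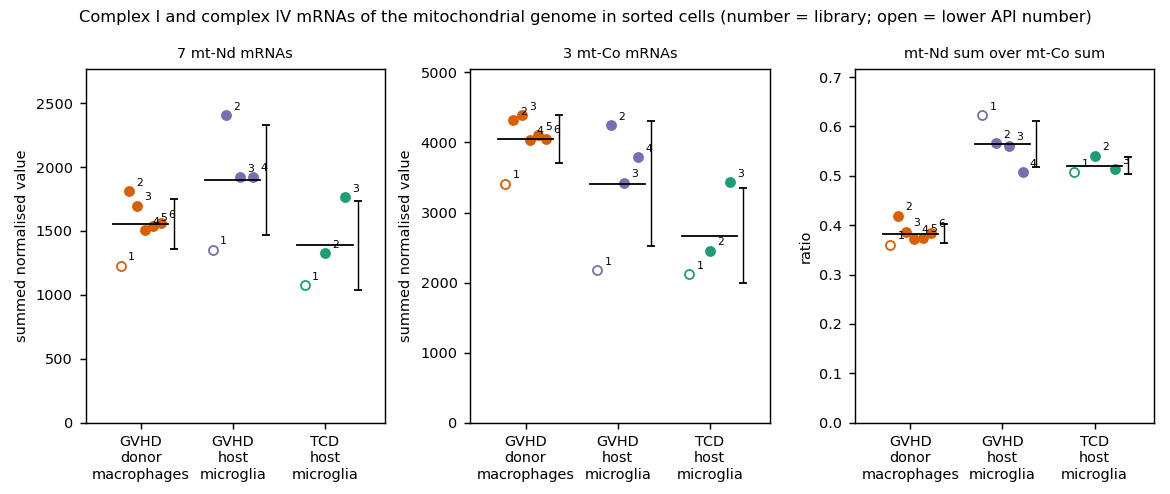
Summed normalised values of 7 mt-Nd mRNAs and of 3 mt-Co mRNAs and their ratio (y axes) in each sorted library by group (x axes); bars are means, whiskers SD, numbers library numbers and open points the lower API number. The sums overlap between groups, while the donor ratios of 0.360 to 0.419 lie below all host ratios, 0.507 to 0.622.

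The same donor libraries were also compared with host microglia of TCD mice, which differ in disease as well as in cell type. Since both comparisons share the donor libraries, their values are given side by side. Of 102 members, 21 rose (20.6%) and 4 fell (3.92%), beside 18.4% and 18.6% of all tested genes, 37.0% together. At an unadjusted p under 0.05 stood 43 members, beside 44.7% of all tested genes. By complex, 7 of 16 nuclear members of complex V, 6 of 13 of complex IV, 4 of 36 of complex I and 1 of 8 of complex III rose. The median log2 fold change was 0.27 over mitochondrial and 0.32 over nuclear members, beside -0.01 over all tested genes. The groups did not overlap for 13 members higher and 2 lower, 12.7% and 1.96%, beside 14.4% and 15.1% of all tested genes.

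Complex IV members of both genomes rose. mt-Co1 had values of 1674, 2116 and 2282 in donor libraries (lowest, median and highest) and 992, 1190 and 1672 in TCD host libraries, which just failed to overlap (log2 fold change 0.63 ± 0.13, SE, limma adjusted p = 0.00174). mt-Co2, which holds the copper site that receives electrons from cytochrome c, rose by 0.42 ± 0.14 (limma adjusted p = 0.0380), and passed in 13 of 27 alternatives. mt-Co3 had a log2 fold change of 0.47 ± 0.19 and did not pass (limma adjusted p = 0.0702). Against GVHD host microglia the log2 fold changes of mt-Co1, mt-Co2 and mt-Co3 were 0.30, -0.10 and 0.34, and none passed. Among nuclear subunits, Cox5a rose by 0.83 ± 0.18 (limma adjusted p = 0.00290), Cox8a by 0.82 ± 0.18 (adjusted p = 0.00268) and Cox7a2 by 0.75 ± 0.21 (adjusted p = 0.0148). Cox8a, a small membrane subunit, had 60.3, 88.6 and 110.5 in donor libraries and 32.3, 42.7 and 59.0 in TCD host libraries, without overlap.

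In complex V, Atp5l, subunit g (0.77 ± 0.24, SE, limma adjusted p = 0.0215), Atp5e, the epsilon subunit (0.69 ± 0.23, adjusted p = 0.0287), and Atp5d (0.67 ± 0.15, adjusted p = 0.00313) had the 3 largest rises. The complex I members that rose most were Ndufa5 (0.60 ± 0.15, limma adjusted p = 0.00801), Ndufs6 (0.57 ± 0.20, adjusted p = 0.0422) and Ndufa6 (0.50 ± 0.16, adjusted p = 0.0240). Uqcrh, the hinge protein that holds cytochrome c1, was the complex III member that rose (0.71 ± 0.22, limma adjusted p = 0.0235).

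Of 8 complex I assembly factors, 2 (25%) fell and none rose, beside 18.6% of all tested genes called lower and 18.4% called higher. Fold changes were positive for 3 of the 8 and negative for 5. Ndufaf4 had 14.8 to 19.9 in donor libraries and 20.8, 26.3 and 32.5 in TCD host libraries (-0.59 ± 0.14, SE, limma adjusted p = 0.00558), without overlap. Ndufaf7 fell by 0.39 ± 0.11 on the log2 scale (limma adjusted p = 0.0156). Cox6a2 and Atp5s were the other members that fell. The pseudogene Cox6c2 rose with values of 1.36 to 3.67 against 0.920 to 1.39, is named after its values were seen, and may hold reads of its parent gene.

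The number of higher members fell from 21 to 7 without TCD host library 2 and rose to 51 without donor library 5, and the number of lower members fell from 4 to 2 without TCD host library 3. All genes called higher numbered 1861 of 13086 without TCD host library 2 and 2715 without donor library 5. The share of the 102 members lay below that of all genes in the first of these fits and above it in the second. Without TCD host library 1, the library marked Syn, 19 were higher and 3 lower. On the scale without mitochondrial genes, the median of all tested genes became -0.15. There 10 members were higher and 5 lower, with medians of 0.11 and 0.17 over mitochondrial and nuclear members. In every alternative other than leaving out 1 library, at least 1883 of all genes were called higher and at least 1984 lower. Both shares of the members on that scale therefore lay below those of all genes.

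**Figure D5:**
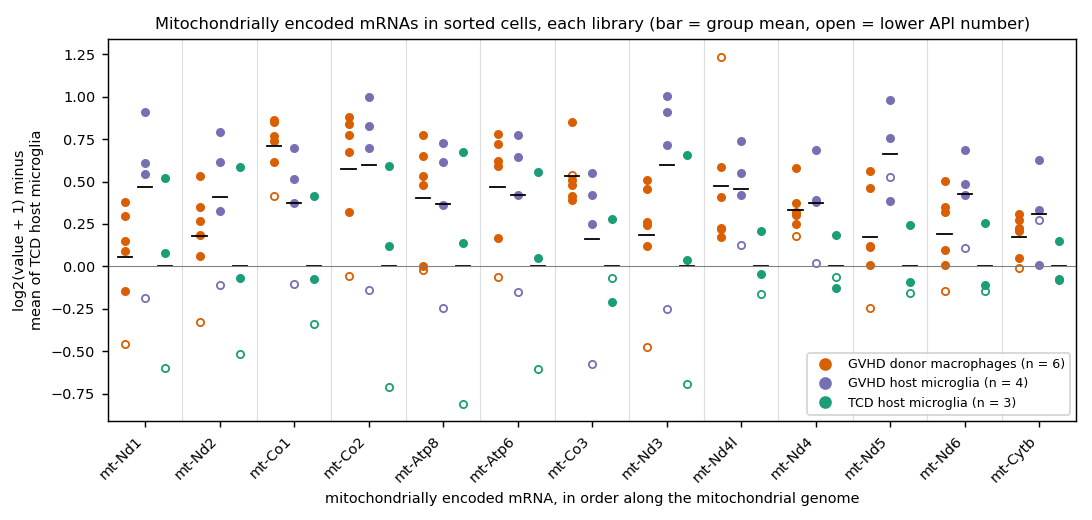
Each point is 1 sorted library: log2(value + 1) of each mitochondrially encoded mRNA minus the mean of TCD host microglia (y axis), by gene (x axis), with bars at group means and open points for the lower API number. The GVHD host points of mt-Nd5, at values of 206 to 312, lie above the TCD host points, at 141 to 187.

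Host microglia of GVHD and TCD mice were compared to ask what differs in resident cells with the disease. No member passed the test in limma, and 0.0917% of all tested genes were called higher and 0.0153% lower, 0.107% in all. Unadjusted, 9 of 102 members (8.82%) had a limma p under 0.05, beside 6.85% of all tested genes, and all 9 were higher in GVHD. Of these, 7 were mitochondrial mRNAs, of 13 tested, and 2 were nuclear, of 89. All 13 mitochondrial members had a positive fold change (median 0.36), as did 77 of 89 nuclear members (median 0.14), beside a median of -0.03 over all tested genes. The shift was not particular to members. Of 82 cytosolic ribosomal protein genes 78 were positive (median 0.35), and 16 were higher at an unadjusted limma p under 0.05. The mitochondrial mRNAs share their transcripts, so they are not independent of each other.

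mt-Nd5 had the smallest p, with values of 227, 312, 267 and 206 in GVHD host libraries 1 to 4 and 141, 148 and 187 in TCD host libraries 1 to 3. It was the only member whose groups did not overlap, 1 of 102, beside 3.57% of all tested genes on the higher and 2.98% on the lower side. Its log2 fold change was 0.64 ± 0.17 (SE, limma adjusted p = 0.242). mt-Co2 had 408, 897, 729 and 798 against 274, 487 and 675 (0.52 ± 0.15, limma adjusted p = 0.338), with overlap. Among nuclear members Uqcrh (0.55 ± 0.24, limma adjusted p = 0.708) and Cox8a (0.43 ± 0.19, adjusted p = 0.715) had an unadjusted p under 0.05.

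The ratio of the mitochondrial to the nuclear sum was 1.71, 1.99, 1.83 and 1.9 in GVHD host and 1.46, 1.57 and 1.71 in TCD host libraries. Summed ribosomal protein mRNAs were 6814 to 12092 in GVHD host and 5213 to 9903 in TCD host microglia, which overlap. The summed engrafted-macrophage, neuron and astrocyte markers given above were higher in GVHD host libraries, with no overlap between these groups. All 3 tested neuron markers and all 6 tested astrocyte markers had a positive fold change, and of these 9 only the astrocyte marker Aldh1l1 passed the test. The part of these sums was not tested. Without TCD host library 1 the medians were 0.32 over mitochondrial and 0.14 over nuclear members, and without TCD host library 2 they were 0.25 and 0.01.

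Genes that run the mitochondrial genome and the wider pathway were taken from further lists. None of them passed in hippocampus or between the host groups. Of 13 genes for mitochondrial DNA upkeep and transcription, 2 (15.4%) fell in donor macrophages against each host group and none rose, beside 19.2% and 18.6% of all tested genes that were called lower. Lrpprc, which binds and stabilises mitochondrial mRNAs, had values of 42.3 to 49.9 in 6 donor libraries, 75.3 to 91.3 in 4 GVHD host and 78.3 to 86.2 in 3 TCD host libraries. Donor macrophages were below all host libraries, with log2 fold changes of -0.86 ± 0.09 and -0.85 ± 0.10 (SE, limma adjusted p = 5.56e-06 and 1.62e-05). Its binding partner Slirp had 17.4 to 29.0 in donor and 16.0 to 25.3 in host libraries, which overlap (limma adjusted p = 0.585 and 0.502). Tefm, the mitochondrial transcription elongation factor, also fell (-0.39 ± 0.11 and -0.42 ± 0.12, limma adjusted p = 0.0119 and 0.0143). Tfam, which packages mitochondrial DNA, had 15.3 to 18.6 in donor and 15.1 to 21.6 in host libraries and did not pass. Polrmt, the mitochondrial RNA polymerase, named after its values were seen, did not pass either. It had 25.0 and 32.1 in donor libraries 1 and 5 and 36.1 in TCD host library 1, beside 4.12 to 7.90 in all other sorted libraries.

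Of 8 nuclear regulators of respiratory genes, 2 (25%) rose against each host group, beside 19.4% and 18.4% of all tested genes called higher. Ppargc1b, a coactivator of respiratory genes, had values of 21.4, 5.96, 7.64, 7.23, 18.2 and 8.49 in donor libraries 1 to 6, 2.04 to 4.92 in GVHD host and 2.41 to 2.68 in TCD host microglia. All donor libraries were above all host libraries, and donor libraries 1 and 5 were the highest (log2 fold changes 1.5 ± 0.27 and 1.79 ± 0.30, SE, limma adjusted p = 7.66e-04 and 4.71e-04). Perm1, another activator, rose by 0.63 ± 0.17 and 0.80 ± 0.19 (limma adjusted p = 0.0117 and 0.00539). Its level was near the filter value of 1, with means of 2.13 in donor, 1.03 in GVHD host and 0.861 in TCD host libraries. Donor libraries overlapped both host groups. Nrf1, Gabpa and Yy1, which bind promoters of many respiratory genes, did not pass, with log2 fold changes of 0.19, 0.01 and 0.14 against GVHD host and 0.07, 0.04 and 0.22 against TCD host microglia.

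Other mitochondrial lists held genes called in both directions in donor macrophages. All tested genes, for reference, were called higher and lower in 19.4% and 19.2% against GVHD host and in 18.4% and 18.6% against TCD host microglia. The mitochondrial ribosome had 12 higher and 4 lower of 80 against GVHD host and 10 and 4 against TCD host microglia. In the tricarboxylic acid cycle, which supplies the chain with NADH and succinate, 2 rose and 2 fell of 13 against GVHD host, and 1 rose and 2 fell against TCD host microglia. Suclg2, the GTP-forming succinyl-CoA ligase subunit, fell by 1.10 ± 0.09 (log2, SE, limma adjusted p = 6.17e-07) and Idh3b, a subunit of isocitrate dehydrogenase, rose by 0.23 ± 0.08 (adjusted p = 0.0383). Of 39 assembly factors outside the name rule, 1 rose and 6 fell against GVHD host and 3 rose and 4 fell against TCD host microglia. Against GVHD host, Tmem186 (-0.57 ± 0.09, limma adjusted p = 2.83e-04) and Lyrm7, a complex III factor (-0.98 ± 0.19, adjusted p = 9.86e-04), fell. Coa7 rose (0.59 ± 0.14, limma adjusted p = 0.00405). Cytosolic ribosomal protein genes had 35 higher and 1 lower of 82 against GVHD host and 67 and 1 against TCD host microglia.

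The nuclear members that followed the summed mitochondrial mRNA most closely over the 13 sorted libraries were Atp5g2 (Pearson r = 0.90), Ndufa2 (0.89), Ndufs5 (0.89), Uqcrh (0.88) and Atp5j2 (0.87). The median r over 89 nuclear members was 0.77, and 87 were positive. These libraries share their scaling and differ in depth and in ribosomal protein sums, so r is a description and carries no p. Ndufaf6 (-0.11) and Ndufaf4 (-0.10), both complex I assembly factors, had a negative r.

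Promoters were searched because nuclear members of several complexes rose in donor macrophages. RefSeq promoters (GRCm38.p6, 250 bases before to 50 after the start) matched 73 of 91 nuclear members that are not pseudogenes. Cores of 8 letters were searched on both strands, and none of the 3 holds another. They were chosen after longer forms of the NRF1 and YY1 motifs had been searched in the same promoters. The NRF1 core CGCATGCG was in 11 of 73 (15.1%), beside 4.45% of 9509 genes tested in sorted cells and 2.07% of all 27025 genes with a promoter. The YY1 core AAGATGGC was in 10 (13.7%, beside 5.53% and 3.19%), and the ETS core CCGGAAGT, of the kind that Gabpa binds, was in 5 (6.85%, beside 9.61% and 4.31%). Of 8 matched members that rose in both donor comparisons, 1 (Atp5h) held the ETS core and none the NRF1 or YY1 core. Of 51 matched members called in neither donor comparison, 9 held the NRF1, 8 the YY1 and 2 the ETS core. A match of letters is a description and not a bound site.

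Upstream bases of 3 members named above follow, 5′ to 3′ in the direction of the gene, with the core in capitals and bases inside the GENCODE gene left out. They are Cox6a1, which fell in GVHD hippocampus (chr5:115348982-115349149, minus strand, NRF1), Ndufaf4, which fell in donor macrophages against TCD host microglia (chr4:24897941-24898082, plus strand, NRF1), and Uqcrh, which rose there (chr4:116075072-116075111, minus strand, ETS on the opposite strand).
Cox6a1: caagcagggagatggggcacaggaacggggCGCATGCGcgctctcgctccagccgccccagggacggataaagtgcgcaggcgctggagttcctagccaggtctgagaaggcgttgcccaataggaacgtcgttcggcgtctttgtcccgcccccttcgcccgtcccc
Ndufaf4: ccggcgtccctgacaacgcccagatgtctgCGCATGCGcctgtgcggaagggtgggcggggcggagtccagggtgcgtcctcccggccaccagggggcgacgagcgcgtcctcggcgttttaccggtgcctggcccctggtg
Uqcrh: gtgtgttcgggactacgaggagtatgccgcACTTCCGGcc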

How the data were processed

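RNA of 6 hippocampus and 13 sorted-cell libraries was analysed from the normalised counts the authors deposited, a signal whose scaling is not given in the sources used here. The submitters' processing notes name cutadapt 1.9, STAR 2.5.2a, RSEM 1.2.30 and GRCm38, with no roles or annotation release. The values are not whole reads, so no count test was used. The test was limma 3.58.1 (R 4.3.3) on log2(value + 1) for genes that reached 1 in 3 or more libraries. It used a variance trend, and p-values were adjusted by Benjamini-Hochberg over every gene tested. Fold changes are on that scale, which understates changes of low genes. Hippocampus was fitted on its 6 libraries, and the sorted cells in 1 model of 13 libraries with the API number as a covariate.

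The members and lists were chosen with earlier results of these data known. One gene of the microglia list is not reported here and was left out of its sum. The naming rule took all mitochondrial members, the complex II genes, isoform pairs and the 5 members most correlated with the mitochondrial sum. It also took the 3 called nuclear members with the largest change per complex, direction and comparison (the 3 smallest p where none passed). Of each other list it took up to 3 called genes per comparison. Not all genes that the rule took are given above. Others are said to be named after their values were seen. Donor and GVHD host libraries that share API and description numbers had correlated deviations (r = 0.44, 0.43, 0.20 and 0.33 in 4 pairs), all above 0.1, and were treated as paired in an alternative fit. Unmatched pairs had r of -0.40 to 0.48, so some were as high. Alternatives changed the pseudocount, filter, scaling, GC and length correction, covariate, block and libraries used.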

Additional observations from a re-analysis of the deposited data

Results flagged for a closer look

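In 86 groups of 4 or 6 sorted libraries looked at, 4 had 1 library set apart from the others by Dixon's gap, and chance flags about 1 group in 20. Cox6a2 was low in donor macrophage library 1, at 0.734 beside 1.53 to 1.64 in the other donors. mt-Co3 was high in donor macrophage library 5, at 1619 beside 1178 to 1303. mt-Nd4l was high in donor macrophage library 1, at 52.9 beside 24.8 to 33.4. Ndufaf7 was low in GVHD host library 1, at 41.9 beside 53.0 to 54.4.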

How the results depend on the processing

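Few hippocampal calls and small fold changes limit these results. With 1 library left out at a time, members called higher in hippocampus numbered 0 to 2 and lower 0 to 4, with a mitochondrial median of -0.154 to -0.041. Against GVHD host microglia they numbered 6 to 30 and 3 to 7 in donor macrophages, against TCD host microglia 7 to 51 and 2 to 4, and between the host groups 0 and 0. All genes called higher and lower numbered 0 to 69 and 0 to 64 in hippocampus. In donor macrophages they numbered 2149 to 2787 and 2244 to 2641 against GVHD host, and 1861 to 2715 and 1887 to 2645 against TCD host. Between the host groups they numbered 5 to 23 and 0 to 5.

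In hippocampus the higher call was lost without the variance trend (0 members). The lower call was lost (0 members) under quantile normalisation, scaling to the total without mitochondrial genes, no variance trend, GC correction, GC and length correction, and the replicate block by title number. The mitochondrial median of -0.07 became 0.035 under quantile normalisation and 0.0040 on the scale without mitochondrial genes. It became -0.254 with GC correction and -0.251 with GC and length correction. The nuclear median of -0.02 became 0.043 on the scale without mitochondrial genes. The median of all tested genes became 0.070 on that scale, so both member medians lay below it, as in the main fit. Under quantile normalisation the median of all tested genes was -0.006.

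For donor macrophages against GVHD host microglia, scaling to the total without mitochondrial genes gave 2 higher and 14 lower, no API covariate 7 and 3, libraries of the higher API number alone 6 higher, and the replicate block by title number, without the API covariate, 27 higher. Against TCD host microglia, scaling to the total without mitochondrial genes gave 10 higher, the replicate block by title number 45 higher and 2 lower, and no API covariate 2 lower. The cause of these changes was not tested. Over all such alternatives, genes called higher and lower numbered 1831 to 2762 and 2039 to 3628 against GVHD host. Against TCD host they numbered 1883 to 2514 and 1984 to 3367. The members' share called higher lay above that of all genes with the replicate block by title number, and below it in the other fits named here. Title numbers did not pair the libraries (same-numbered r of -0.23 to -0.04 in hippocampus and -0.05 to 0.44 between donor and GVHD host). Of the values for single genes, 731 were called in both fits, 2147 in neither, 152 lost their call, 34 gained one, and none changed sign while called.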
